A study of Mus musculus with 12 samples.

Results

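Histone genes encode the proteins that DNA is wound around, and 82 of them could be followed in sorted mouse CD4+ T cells on gene expression arrays. They are all genes whose array symbol, or an older symbol of the same Entrez gene, starts with Hist1h, Hist2h, Hist3h, Hist4h, H1f, H2af, H2ac, H2bc, H3c, H3f or H4c. Of the 41345 rows of the array table, 25335 name a gene and 84 name histone genes alone, with 81 of those holding values of their own. Each gene is represented by its brightest row, judged by the mean of all 12 arrays, and this gave 40 rows, 27 for 69 replication-dependent genes and 13 for 13 variant genes. That choice used the measured means, so the general level of a row is given only as a description. Among the 40 rows, 30 list 1 histone gene and 10 list several nearly identical ones, up to 13, and these shared rows measure 52 of the 82 genes. A shared row is named here after a single gene ("H2bc4 row") and cannot tell its genes apart. Some genes are listed by more than 1 of the rows, so counts of rows are not counts of separate measures. Not used were 9 rows that list histone genes together with other genes, among them those of H3f3a and H3f3b, which encode the replacement histone H3.3.

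All cells were splenic CD4+ T cells of Foxp3.eGFP mice aged 8 weeks, on the C57BL/6 background, in which green fluorescence reports Foxp3. Control cells were fresh, and the other cells were cultured for 3 days, either with monoclonal antibodies to CD3 and CD28 at 2 µg/ml each or with soluble OX40L at 5 µg/ml and JAG1 at 1 µg/ml. Each culture was sorted into Foxp3+ regulatory (Treg) and Foxp3- effector (Teff) cells, which makes 6 groups of 2 arrays, called replicate 1 and replicate B in the labels. No label says whether the 2 came from separate mice or cultures, so p-values reflect only how far these samples differ, a spread that may be technical, and the number of arrays limits the precision. As the controls were not cultured, treatment cannot be told apart from culture in any comparison with them. Values are log2 intensities, and a pair of values is always given with replicate 1 before replicate B.

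The replication-dependent histone genes sit in clusters, are transcribed mainly in S phase, lack introns, and make mRNAs that end in a stem-loop instead of a poly(A) tail. The stem-loop binding protein Slbp holds that end during processing and translation, and the mRNAs are destroyed when DNA synthesis stops. Variant histone genes are scattered single genes whose mRNAs are mostly polyadenylated and made throughout the cell cycle, and their proteins replace the standard ones at particular places in chromatin.

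The labels and the arrays of the series were checked first. Foxp3 lay between 10.36 and 11.22 in the 6 Treg arrays and between 5.58 and 6.81 in the 6 Teff arrays. Of the 6 genes of this check, 3 were called higher and 3 lower in OX40L-JAG1 Teff than in control Teff. Over all rows 20% and 26.9% were. Group means of Cd4, Cd3e and Cd3g were 11.88, 11.88 and 12.02 in control Teff and 9.33, 9.75 and 10.82 in OX40L-JAG1 Teff. With anti-CD3/CD28 in Teff 2 were higher and 2 lower, and Cd4 and Cd3e gave 9.92 and 10.58. In Treg none was lower with either culture. Arrays of OX40L-JAG1 Teff cells differed from the rest: their replicates correlated at 0.881 over all rows tested, whereas the other groups gave 0.984 to 0.994, and the spread of values within an array was 1.49 and 1.71 log2 units against 1.95 to 2.19. Neutrophil and myeloid markers were higher than control in 7 of 10 in OX40L-JAG1 Treg and in 9 of 10 in OX40L-JAG1 Teff cells. The log2 of their summed intensity ran from 11.09 to 11.30 and from 12.31 to 13.49 there, against 7.30 to 8.19 in the other 8 arrays. Basophil and mast cell markers were higher in 3 of 6 and 4 of 6, and erythroid and platelet markers in 2 of 4 and 2 of 4. Over all rows 0.996% were higher in OX40L-JAG1 Treg and 20% in OX40L-JAG1 Teff. Of the erythroid and platelet markers 1 was lower in OX40L-JAG1 Teff, Car2, with a group mean of 6.04 against 9.14 in control. The part of these markers in the OX40L-JAG1 results was not tested. With both anti-CD3/CD28 groups, 9 of these 10 markers stayed below 4.87, the lowest median of any array, a level that is not shown to be above background.

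As a class, replication-dependent histone transcripts moved with cell type and treatment more than variant ones did. The mean over the 27 replication-dependent rows was 6.56 to 6.62 in control Teff arrays and 7.83 to 8.05 in anti-CD3/CD28 Teff arrays. Treg arrays lay between those values, at 7.36 to 7.60 in control, 6.92 to 7.33 with OX40L-JAG1 and 7.21 to 7.30 with anti-CD3/CD28. OX40L-JAG1 Teff arrays gave 7.74 and 6.87, the widest gap between replicates. The mean over the 13 variant rows went only from 5.81 in a control Teff array to 6.17 in an anti-CD3/CD28 Teff array. Group means of a row spanned 1.72 log2 units in the median replication-dependent row, 1.06 in the median variant row and 0.94 in the median of all 22179 rows tested. The classes differ in signal, and 3 of the 13 variant rows had group means below 4.87 in every group. The brightest variant rows, Macroh2a1, H2ax and H2az2, spanned 1.68, 1.89 and 1.48. Replication-dependent rows with a mean of 8 or more spanned 0.62 (H1f2) to 3.80 (H2bc3). Control Teff was the lowest of the 6 groups in 16 of the 27 replication-dependent rows, and anti-CD3/CD28 Teff was the highest in 14. In bulk samples, fewer cells that make a transcript and less transcript per cell cannot be told apart.

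**Figure D1:**
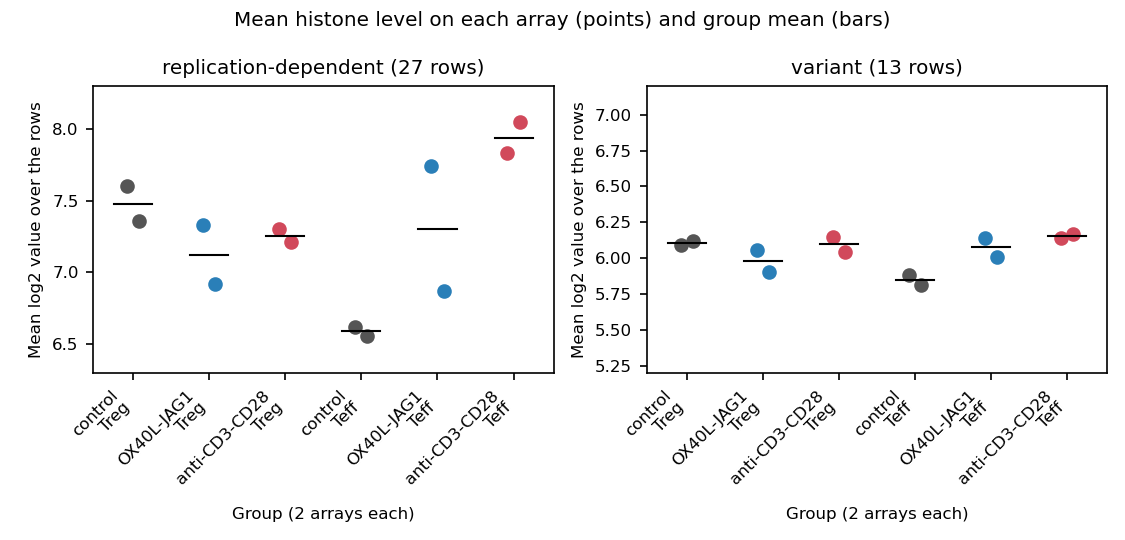
Mean log2 intensity over the replication-dependent rows and over the variant rows, in a panel each, for every array (points) of the 6 groups. The replication-dependent mean is lowest in the control Teff arrays (6.56 to 6.62) and highest in the anti-CD3/CD28 Teff arrays (7.83 to 8.05), while the variant mean stays between 5.81 and 6.17.

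**Figure D2:**
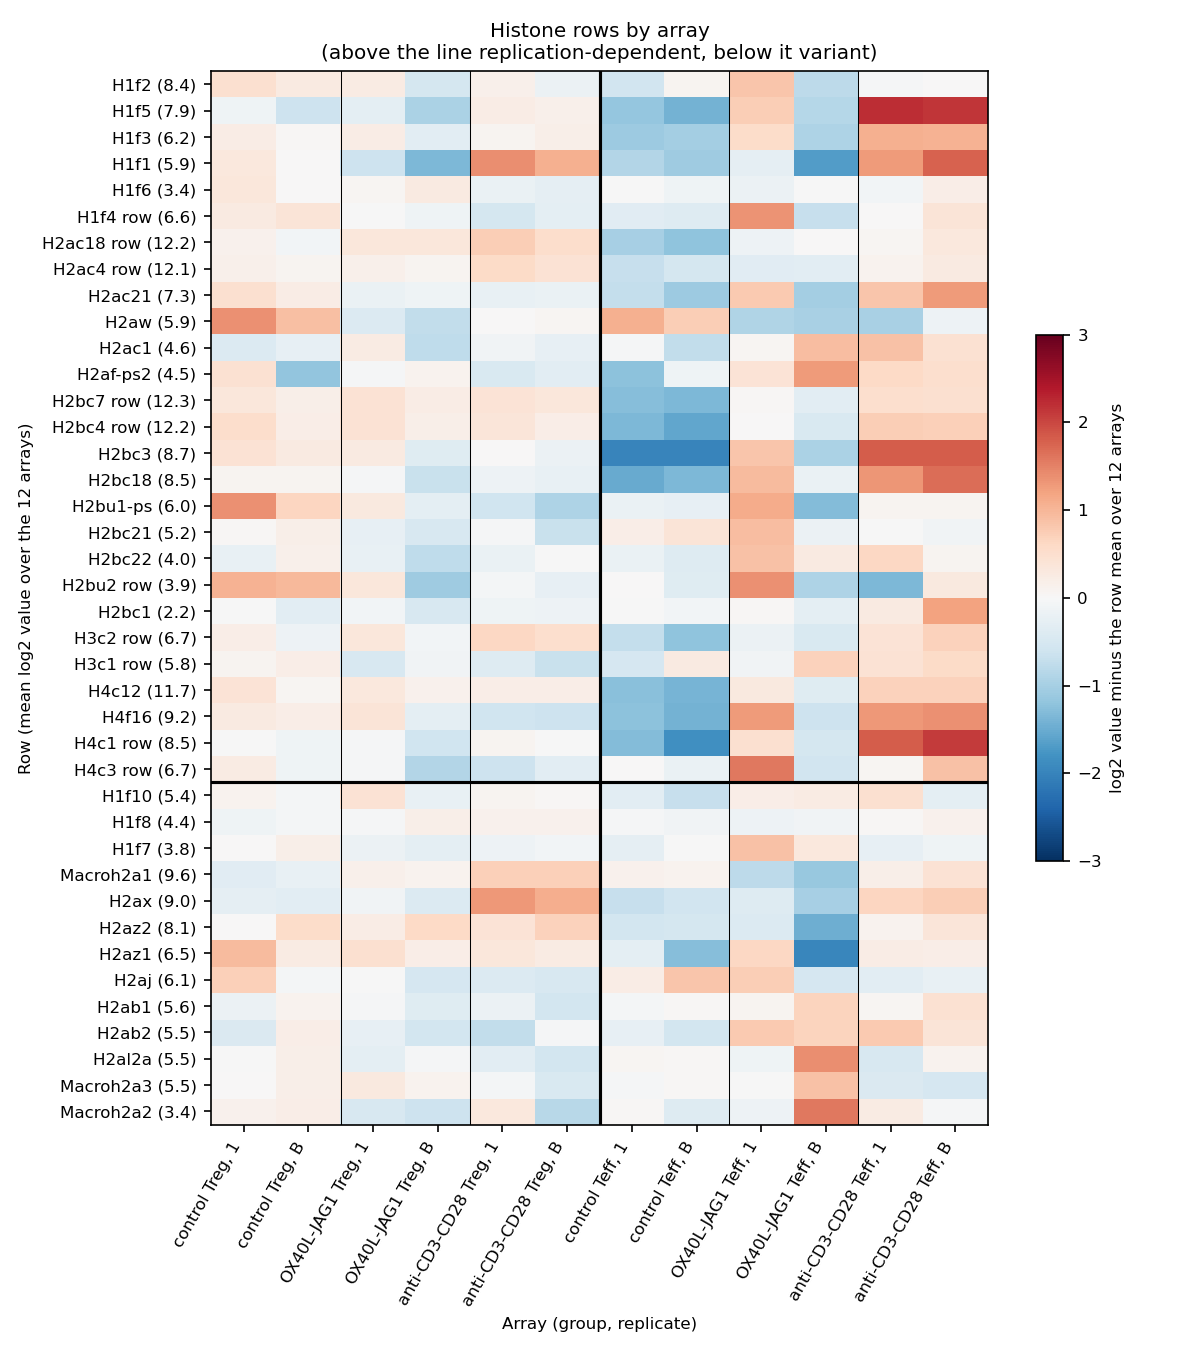
Each histone row (vertical) in each of the 12 arrays (horizontal), as log2 value minus the mean of the row over the arrays, grouped by class. Most replication-dependent rows are low in the control Teff arrays and high in the anti-CD3/CD28 Teff arrays; the variant rows show no such common order.

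The largest rises in the 9 comparisons of groups were in Teff cells stimulated through CD3 and CD28. Of the 27 replication-dependent rows, 14 rose over fresh Teff and 1 fell, in limma's test with Benjamini-Hochberg adjustment over all rows tested (19 at an unadjusted p under 0.05). Over the whole array 15.2% of rows were called in this comparison, 5.44% as higher and 9.76% as lower. The median change was 1.24 over the replication-dependent rows and 0.07 over all rows. Bright rows moved the other way as a whole: of 2269 rows with a mean of 8 or more, 240 rose (10.6%) and the median was -0.29. Of the 10 replication-dependent rows of that brightness 9 rose, with a median of 2.10. That mean includes the arrays compared, so a row can pass through the group where it is high. H2bc3, H2bc18, H4f16 and the H4c1 row had control Teff means below 8 (6.69, 7.06, 7.9 and 6.91). Counts of bright rows here and below are therefore descriptions only. Markers of B cells, which could remain in fresh Teff samples, were lower in 4 of 7 after anti-CD3/CD28 in Teff, with a log2 summed intensity of 8.71 to 8.72 against 9.20 to 9.21, those of erythroid cells and platelets were higher in 2 of 4 and lower in 1, and those of CD8 T and NK cells higher in 1 of 6. Their part in the result was not tested.

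H2bc3, a gene for the core histone H2B, stood at 6.70 and 6.69 in control Teff arrays and at 10.49 and 10.49 with anti-CD3/CD28. The 6 Treg arrays lay between 8.31 and 9.12, and the OX40L-JAG1 Teff arrays gave 9.50 and 7.73. No array of another group reached the anti-CD3/CD28 Teff level or went as low as control Teff. The rise was 3.80 ± 0.43 (log2 change ± SE, n = 2 against 2, adjusted p = 2.02e-04 by limma), or 13.9-fold.

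The H4c1 row, which covers 6 genes for the core histone H4, gave 7.19 and 6.64 in control Teff and 10.30 and 10.58 in anti-CD3/CD28 Teff arrays. In Treg arrays it was 8.47 and 8.36 in control, 8.45 and 7.90 with OX40L-JAG1 and 8.56 and 8.48 with anti-CD3/CD28. It was therefore lowest and highest in 2 Teff groups, with every Treg array between them. It rose by 3.53 ± 0.32 in Teff cells (adjusted p = 4.11e-05 by limma), or 11.5-fold. H4c12, another H4 gene, went from 10.40 and 10.27 to 12.36 and 12.35, a change of 2.02 ± 0.23, and H4f16 from 7.99 and 7.81 to 10.52 and 10.60, a change of 2.66 ± 0.46. The H4c3 row, the only other H4 row, lists 13 H4 genes, among them H4c12, H4f16 and all 6 genes of the H4c1 row. It gave 6.68 and 6.46 against 6.72 and 7.55 and did not pass the test (adjusted p = 0.5815 by limma). Rows that list the same H4 genes thus did not all rise.

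Linker histones, which bind the DNA between nucleosomes, rose in 3 of 5 rows. H1f5 stood at 6.77 and 6.53 in control Teff and at 10.15 and 10.08 in anti-CD3/CD28 Teff arrays, a rise of 3.46 ± 0.41 (adjusted p = 2.60e-04 by limma), or 11.0-fold. H1f1 changed by 2.50 ± 0.40 and H1f3 by 2.12 ± 0.37. H1f2 did not pass, with 7.85 and 8.50 against 8.40 and 8.44, and its groups overlapped. The remaining row is H1f6, a linker histone gene of the testis, which stayed between 3.11 and 3.73 in all 12 arrays, below 4.87. A further row shared by H1f4 and 3 H2B genes changed by 0.58 ± 0.47 and did not pass (adjusted p = 0.4942 by limma). The H2bc4 row, which rose, lists the same 3 H2B genes.

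H2B rows rose in 4 of 9. Besides H2bc3 they were H2bc18, from 6.98 and 7.15 to 9.81 and 10.17 (2.93 ± 0.33, adjusted p = 1.94e-04 by limma, 7.60-fold), the H2bc4 row (2.18 ± 0.22) and the H2bc7 row (1.79 ± 0.19). The H2bc4 row lists 12 H2B genes, among them all 4 that the H2bc7 row lists, so these rows are not separate measures. Both gave values above 10 in every array. H2bc1, an H2B gene of the testis, and H2bc22 had group means below 4.87 in every group and were not shown above background.

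H2A rows rose in 3 of 6, the H2ac18 row by 1.29 ± 0.19, the H2ac4 row by 0.80 ± 0.17 and H2ac21 by 1.95 ± 0.44. H3 rows rose in 1 of 2: the H3c2 row, which covers 8 genes, gave 6.02 and 5.54 in control Teff and 7.16 and 7.43 with anti-CD3/CD28 (1.51 ± 0.24, adjusted p = 0.001452 by limma). The H3c1 row, with 4 other H3 genes, gave 5.31 and 6.09 against 6.26 and 6.40 and did not pass. All 5 histone families of the replication-dependent class thus held at least 1 rising row. Leaving out any single array left 12 to 17 rows called higher. The call of the H2ac4 row was lost without either control Teff array or without anti-CD3/CD28 Teff replicate B (adjusted p up to 0.105), and that of H2ac21 without control Teff replicate B or anti-CD3/CD28 Teff replicate B (up to 0.101).

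**Figure D3:**
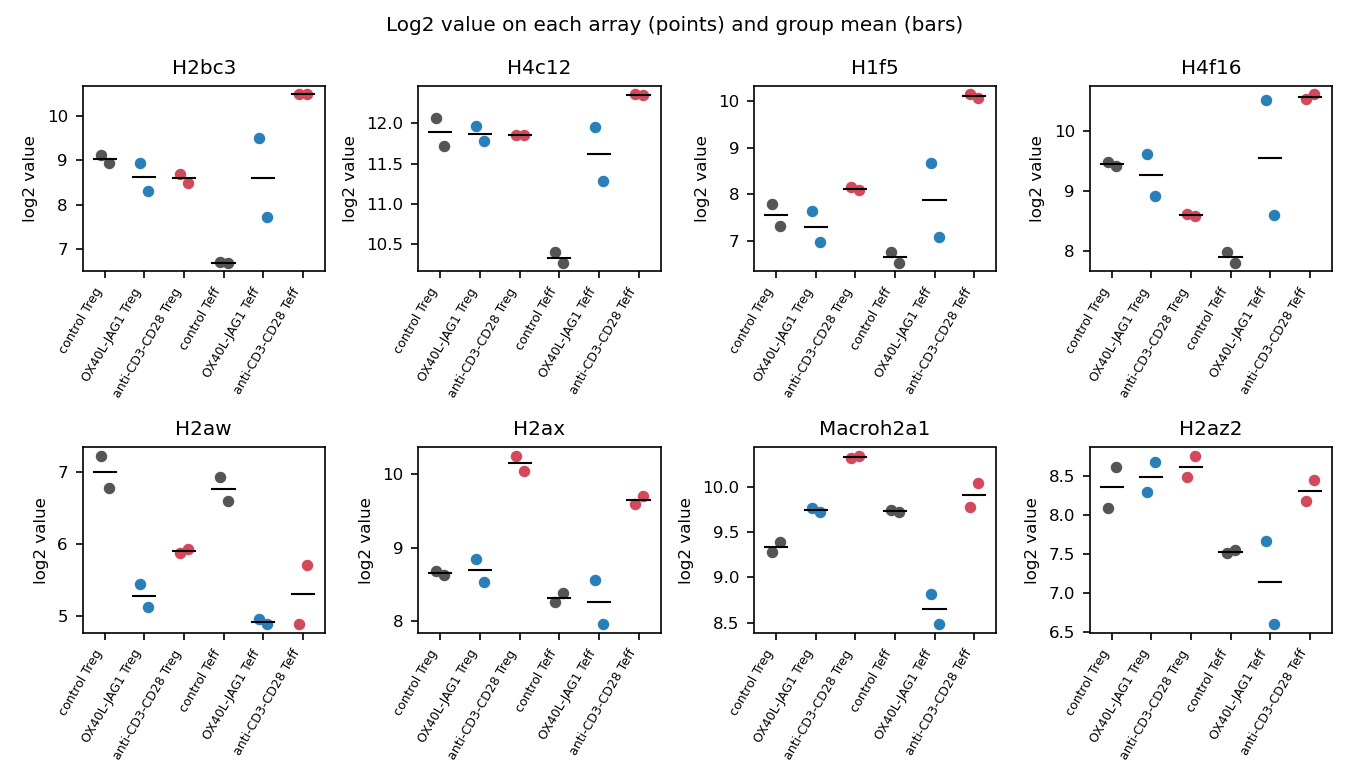
Log2 intensity of 8 histone rows (H2bc3, H4c12, H1f5, H4f16, H2aw, H2ax, Macroh2a1 and H2az2) in each array, with the 2 arrays of a group as points. H2bc3 runs from 6.69 in control Teff to 10.49 in anti-CD3/CD28 Teff with the Treg arrays between, H2aw is highest in the 4 fresh arrays, and H2ax is highest in the 4 anti-CD3/CD28 arrays.

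H2aw, an H2A gene of a small cluster outside the large ones and formerly Hist3h2a, fell in all 4 comparisons of a culture with the control of the same cell type, while most replication-dependent rows had positive changes in Teff and negative ones in Treg. It stood at 7.22 and 6.77 in control Treg and 6.93 and 6.60 in control Teff arrays. Cultured arrays were lower, at 5.44 and 5.12 (OX40L-JAG1 Treg), 5.87 and 5.93 (anti-CD3/CD28 Treg), 4.96 and 4.88 (OX40L-JAG1 Teff) and 4.89 and 5.71 (anti-CD3/CD28 Teff). All 4 fresh arrays were above all 8 cultured arrays. The falls against the control of the same cell type, by limma, were -1.71 ± 0.27 with OX40L-JAG1 in Treg (adjusted p = 0.008665) and -1.09 ± 0.27 with anti-CD3/CD28 in Treg (adjusted p = 0.02655). In Teff cells they were -1.85 ± 0.27 with OX40L-JAG1 (adjusted p = 3.77e-04) and -1.47 ± 0.27 with anti-CD3/CD28 (adjusted p = 0.003926). The call with anti-CD3/CD28 in Treg was lost without any 1 of the 4 arrays compared (adjusted p up to 0.206). In Teff it was lost without control Teff replicate 1 (0.0526). With OX40L-JAG1 in Treg it was lost without control Treg replicate 1 or either OX40L-JAG1 Treg array (up to 0.141).

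The promoters of the rising genes hold known histone gene elements. RefSeq promoter sequences of build GRCm38.p6 were on hand for 73 of the 82 genes. The 250 bases before each start were searched on both strands for the octamer ATTTGCAT (bound by Pou2f1), the CCAAT box (CCAAT) and the TATA box (TATAAA). The E2F-like motifs TTTGGCGC and TTTCGCGC were searched in the same way. The sequences below are those of 4 genes that rose in Teff cells, a pair of H2B genes, an H1 gene and an H4 gene, and, last, of the variant gene H2az1. They show promoters with and without the octamer and were not chosen as the 4 largest rises. They lie at chr13:23746484-23746733 (H2bc3, plus strand), chr3:96269450-96269699 (H2bc18, plus), chr13:21780626-21780875 (H1f5, minus), chr13:21750554-21750803 (H4c12, minus) and chr3:137864237-137864486 (H2az1, plus). Capitals mark the octamer, the CCAAT box and the TATA box, with ATTGG where the CCAAT box is on the other strand. None of these sequences holds an E2F-like motif.
H2bc3: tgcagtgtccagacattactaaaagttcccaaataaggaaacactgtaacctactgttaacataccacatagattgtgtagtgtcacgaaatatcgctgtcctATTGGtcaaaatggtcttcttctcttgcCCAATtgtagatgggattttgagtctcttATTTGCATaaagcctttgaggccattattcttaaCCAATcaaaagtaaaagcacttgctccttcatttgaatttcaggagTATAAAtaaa
H2bc18: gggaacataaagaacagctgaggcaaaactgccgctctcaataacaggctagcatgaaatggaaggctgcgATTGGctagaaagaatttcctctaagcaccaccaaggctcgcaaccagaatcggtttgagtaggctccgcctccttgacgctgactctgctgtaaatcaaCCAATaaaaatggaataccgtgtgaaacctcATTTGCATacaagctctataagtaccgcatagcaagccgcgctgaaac
H1f5: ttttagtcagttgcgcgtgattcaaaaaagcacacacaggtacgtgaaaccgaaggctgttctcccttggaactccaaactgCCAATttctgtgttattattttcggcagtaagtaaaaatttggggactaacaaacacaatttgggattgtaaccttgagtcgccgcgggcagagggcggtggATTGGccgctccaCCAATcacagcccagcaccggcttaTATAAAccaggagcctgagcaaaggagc
H4c12: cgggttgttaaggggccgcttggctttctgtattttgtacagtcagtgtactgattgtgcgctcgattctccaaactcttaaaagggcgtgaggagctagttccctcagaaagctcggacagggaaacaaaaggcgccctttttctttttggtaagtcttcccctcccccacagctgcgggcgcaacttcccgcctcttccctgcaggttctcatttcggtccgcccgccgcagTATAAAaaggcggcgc
H2az1: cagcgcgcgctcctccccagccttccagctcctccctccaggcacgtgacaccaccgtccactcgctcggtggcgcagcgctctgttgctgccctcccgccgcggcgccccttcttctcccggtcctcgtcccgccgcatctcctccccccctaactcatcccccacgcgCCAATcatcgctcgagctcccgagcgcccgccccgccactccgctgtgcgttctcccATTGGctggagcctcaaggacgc
H2bc3 and H2bc18 each hold the octamer, starting 90 and 48 bases before the start, while H1f5 and H4c12 hold none. H2bc3 has 3 CCAAT boxes and H1f5 has 3, H2bc18 has 2, and H4c12 has only a TATA box, 16 bases before its start.

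Over all replication-dependent genes with a sequence, 63 promoters, 14 held the octamer (22.2%), against 526 of 32851 promoters in the table (1.6%). All 14 belonged to H2A (7 of 18) or H2B genes (7 of 17), and none to the H1, H3 or H4 genes. The CCAAT box was in 52 of 63 (82.5%, against 33.8% of all), including all H1, H2A and H2B promoters, but only 3 of 12 of H4. The TATA box was in 29 of 63 (46.0%, against 12.4%). The E2F-like motif TTTCGCGC was in 7 of 63 (11.1%, against 0.256%), 3 of 18 of H2A and 4 of 17 of H2B. TTTGGCGC was in none (against 0.417%). Of the 11 variant promoters, 6 held CCAAT and none held the octamer, this TATA box or an E2F-like motif. The rows that rose in Teff cells included H1 and H4 genes without the octamer. Several of these genes are near copies of each other and share sequence.

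Treg cells given the same antibodies did not show this rise. Of the 27 replication-dependent rows none was called higher and 1, H2aw, was called lower (limma, 5 at an unadjusted p under 0.05), where 10.1% of all rows were called, 8.09% as higher and 1.97% as lower. The median change was -0.08 (-0.05 over all rows). Among markers of other cells, 1 of 7 of B cells was called higher, H2-Ab1 (group means of 4.75 in control and 8.98 with anti-CD3/CD28). So were 1 of 10 neutrophil and myeloid markers, Ltf (4.30 and 6.48), and 1 of 4 erythroid and platelet markers, and no marker of these lists was lower. Their part in the result was not tested. H2bc3 gave 9.12 and 8.94 in control Treg and 8.70 and 8.50 with anti-CD3/CD28 (-0.43 ± 0.43), the H4c1 row changed by 0.10 ± 0.32 and H4f16 by -0.84 ± 0.46. H1f1 had the largest rise, from 6.21 and 5.90 to 7.29 and 6.95 (1.06 ± 0.40, adjusted p = 0.1402 by limma), with both treated arrays above both controls. The largest change in size was in the other direction: H2bu1-ps, an H2B pseudogene by its symbol, gave 7.36 and 6.64 in control and 5.39 and 5.08 with anti-CD3/CD28 (-1.77 ± 0.57, adjusted p = 0.08207 by limma), with both treated arrays below both controls. The 14 rows that rose in Teff cells changed by -0.84 to 1.06 in Treg cells, against 0.80 to 3.80 in Teff cells. Depending on the setting, 0 to 2 rows were called higher in Treg cells; quantile normalization called 2, the H2ac18 and H2ac4 rows. The count of lower rows also moved, from 1 to 4 without either OX40L-JAG1 Teff array or both, when 2 were higher, and to 7 in a fit of the 4 arrays alone.

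The difference between the responses of the cell types was tested directly. The Treg response to anti-CD3/CD28 was lower than the Teff response in 10 of 27 replication-dependent rows and higher in none, where 2.94% of all rows were lower, 10.1% were higher and 13.1% differed in either direction. The median difference was -1.29 (-0.08 over all rows). H2bc3 differed by -4.23 ± 0.61 (adjusted p = 0.001971 by limma), H4f16 by -3.50 ± 0.65 (0.006737), the H4c1 row by -3.42 ± 0.45 (0.001234) and H2bc18 by -3.21 ± 0.47 (0.002025). Among the others were H1f5, at -2.91 ± 0.59, and H4c12, at -2.06 ± 0.33. The difference of responses includes that between the fresh cells. Fresh Treg were above fresh Teff by 1.82 in the H2bc4 row and 1.56 in the H2bc7 row. Their anti-CD3/CD28 group means were close, at 12.48 in Treg against 12.92 in Teff and 12.7 against 12.8. H2bc3, H4f16, the H4c1 row, H2bc18 and H1f5 were also called lower in Treg after anti-CD3/CD28, as given below. With any 1 array left out, 7 to 16 rows were called, the 16 without either OX40L-JAG1 Teff array. The calls of H1f3 and H2ac21 were lost without any 1 of the 8 arrays of these 4 groups, and H1f5 without control Teff replicate B (adjusted p = 0.0508), while the other 7 were kept in all 12 such fits.

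**Figure D4:**
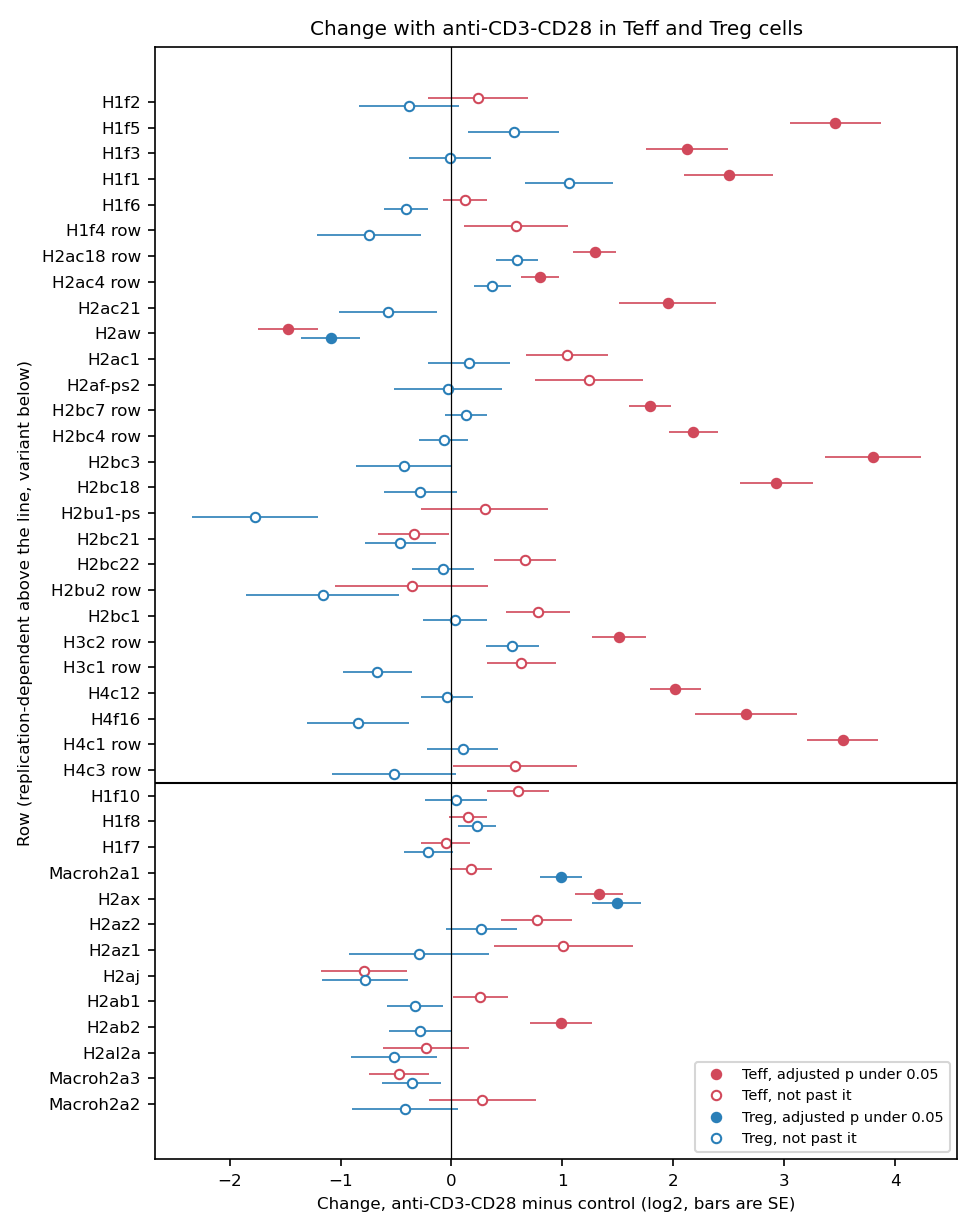
Log2 change with anti-CD3/CD28 against fresh control for each histone row, in Teff (red) and Treg (blue), with bars of 1 standard error and filled points where limma's adjusted p was under 0.05. The replication-dependent rows spread from -1.47 to 3.80 in Teff and from -1.77 to 1.06 in Treg, and H2ax is to the right of 0 in both.

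In fresh cells, before any culture, Treg already had more replication-dependent histone RNA than Teff. By limma, 9 of 27 rows were higher and none lower (14 at an unadjusted p under 0.05), where 3.87% of all rows were called, 1.37% as higher and 2.51% as lower. The median difference was 0.98, against 0.02 over all rows. Among bright rows, with a mean of 8 or more, 8 of 10 histone rows were higher with a median of 1.53. Of all 2269 bright rows 109 were higher (4.8%), with a median of -0.15. The mean that picks these rows includes the arrays compared, so this is a description only. B cell markers were lower in Treg in 4 of 7, with a log2 summed intensity of 7.94 to 8.25 against 9.20 to 9.21, and neutrophil and myeloid markers in 2 of 10 (7.30 to 7.42 against 8.12 to 8.19). Erythroid and platelet markers were lower in 1 of 4, Car2, with a summed level of 6.64 to 6.79 against 9.31 to 9.38. Basophil and mast cell markers were lower in 1 of 6, Cpa3 (6.54 to 6.74 against 7.74 to 7.83), and CD8 T and NK cell markers in 1 of 6, Klrd1 (8.90 to 9.03 against 9.31 to 9.35). No marker of these lists was called higher in Treg. Their part in the difference was not tested.

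H2bc3 gave 9.12 and 8.94 in control Treg against 6.70 and 6.69 in control Teff arrays, a difference of 2.34 ± 0.43 (adjusted p = 0.01153 by limma), or 5.05-fold. The H2bc4 row gave 12.71 and 12.39 against 10.84 and 10.64 (1.82 ± 0.22, adjusted p = 7.20e-04), and H4c12 gave 12.07 and 11.72 against 10.40 and 10.27 (1.56 ± 0.23, adjusted p = 0.003261). The H2bc7 row, with 12.65 and 12.48 against 11.04 and 10.97, differed by 1.56 ± 0.19. In all of these, both Treg arrays were well above both Teff arrays. All 5 H1 rows also had both Treg arrays above both Teff arrays, by 0.24 to 1.19, as 28.7% of all rows had, but none passed the test, and H1f6 among them stayed below 4.87 in all arrays.

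This count rests on few arrays. It was 3 without control Treg replicate 1, 4 without control Treg replicate B, 4 without control Teff replicate 1 and 2 without control Teff replicate B. It was 16 without either of the OX40L-JAG1 Teff arrays, which take no part in the comparison but enter the shared estimate of the spread. The H2bc4 and H2bc7 rows were called in every one of these fits. All 9 rows were also among the 14 that rose in Teff cells with anti-CD3/CD28, but both comparisons use the same control Teff arrays. Variant rows gave 0 calls by limma, with 2 at an unadjusted p under 0.05 (H2az1 and H2az2), and both were called in the fits without an OX40L-JAG1 Teff array.

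After anti-CD3/CD28 part of the replication-dependent rows were lower in Treg than in Teff. In Treg, 6 of 27 replication-dependent rows were lower than in Teff and none was higher, where 12% of all rows were called, 9.06% as higher and 2.9% as lower, and the median was -0.61 (-0.05 over all rows). H1f5 gave 8.16 and 8.09 in Treg against 10.15 and 10.08 in Teff (-1.99 ± 0.41, adjusted p = 0.01077 by limma). H4f16 differed by -1.96 ± 0.46, the H4c1 row by -1.92 ± 0.32, H2bc3 by -1.89 ± 0.43, H2bc18 by -1.70 ± 0.33 and the H3c1 row by -1.04 ± 0.31 (adjusted p = 0.04981). In all 6 rows both Treg arrays were below both Teff arrays. Of the 9 rows that were higher in fresh Treg, H2bc3, H2bc18 and the H4c1 row were now called lower and the other 6 were not called. Mcpt8 and Cpa3 among 6 basophil and mast cell markers were also lower in these Treg arrays. So were Car2 among 4 erythroid and platelet markers and Klrd1 among 6 CD8 T and NK cell markers. Called higher in Treg were 1 of 10 neutrophil and myeloid markers, Ltf (6.48 against 4.45), and 1 of 7 B cell markers. The part of all these markers in the result was not tested. Without anti-CD3/CD28 Treg replicate 1 or B or Teff replicate B 1 row was called, without Teff replicate 1 3 rows, and without either OX40L-JAG1 Teff array 13. The H4c1 row was called in all of these. The H2ac18 row, not called, gave 12.97 and 12.76 in Treg and 12.30 and 12.55 in Teff, and the group means of the H2ac4 and H3c2 rows were 12.62 against 12.32 and 7.31 against 7.29, so these 3 rows were not lower in Treg; quantile normalization called 2 rows higher in Treg beside 5 lower.

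OX40L-JAG1 culture raised the same class in Teff cells, with replicates further apart than with anti-CD3/CD28. In this comparison 46.9% of all rows were called, 20% as higher and 26.9% as lower, and 12 of 27 replication-dependent rows were called higher and 1, H2aw, lower. The median change was 0.78, against 0.18 over all rows. Among bright rows, 8 of 10 histone rows rose with a median of 1.26, whereas 129 of all 2269 rose and 1665 fell, with a median of -1.23. Here too the mean that picks bright rows includes the arrays compared, so the count is a description only. H2bc3 rose by 1.92 ± 0.43 (adjusted p = 0.004582 by limma), H2bc18 by 1.79 ± 0.33, H4f16 by 1.65 ± 0.46 and the H4c1 row by 1.55 ± 0.32. Replicate 1 gave 9.50 and replicate B 7.73 for H2bc3, 10.51 and 8.60 for H4f16, and 9.43 and 8.28 for H2bc18, so replicate 1 lay nearer to the anti-CD3/CD28 level and replicate B nearer to control. The SE of a row rests on a spread pooled over all groups, so this gap enters the SEs and p-values above only in part. It also enters those of comparisons without these arrays. For H2bc3 the SE was also 0.43 with anti-CD3/CD28, where the SD of its arrays was 0.003, against 1.25 with OX40L-JAG1. H2af-ps2, at 4.85 and 5.73 against 3.21 and 4.32, and H2bc22, at 4.89 and 4.29 against 3.81 and 3.62, were called too, at values around 4.87 or below in most of these arrays.

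The count of 12 higher rows became 19 without OX40L-JAG1 Teff replicate B, 11 without replicate 1, and 8 without either control Teff array. It was 8 with array weights, in which these 2 arrays got the lowest weight, 8 with a common median, and 3 in a fit of the 4 arrays alone. The change of H4f16 went from 0.70 to 2.61 over the fits with 1 array left out, and its call was lost without either control Teff array. The calls of H2bc3, H2bc18, H4c12 and the H2bc4, H2bc7, H2ac18 and H4c1 rows were kept in all 12 such fits.

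In Treg cells OX40L-JAG1 gave no such rise. Of 27 replication-dependent rows none was higher and 1, H2aw, was lower, by limma, where 1.55% of all rows were called, 0.996% as higher and 0.555% as lower. The median was -0.26 (-0.01 over all rows), and both treated arrays were below both controls in 10 rows and above in 1, against 22.5% and 23.2% of all rows. H2bc3 gave 9.12 and 8.94 in control and 8.95 and 8.31 with OX40L-JAG1, and H4c12 gave 12.07 and 11.72 against 11.97 and 11.78. No setting called a row higher. The Treg response to OX40L-JAG1 was lower than the Teff response in 7 of 27 rows, where 31.5% of all rows differed, 21.3% as higher and 10.2% as lower. H2bc3 differed by -2.32 ± 0.61 (adjusted p = 0.01566 by limma) and H2bc18 by -2.22 ± 0.47 (0.005215), followed by the H4c1 row (-1.79 ± 0.45) and H2bc22 (-1.32 ± 0.40). The count was 3 without OX40L-JAG1 Treg replicate B or control Teff replicate B, 11 without OX40L-JAG1 Teff replicate 1 and 18 without its replicate B.

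The 2 cultures were also compared with each other within a cell type, at the same culture time but with different agents. In Treg 5.93% of all rows were called, 4.75% as higher with anti-CD3/CD28 and 1.18% as lower, and 1 of 27 replication-dependent rows was: H1f1, at 7.29 and 6.95 with anti-CD3/CD28 against 5.26 and 4.53 with OX40L-JAG1 (2.22 ± 0.40, adjusted p = 0.006071 by limma, 4.67-fold). This call was lost without OX40L-JAG1 Treg replicate B or anti-CD3/CD28 Treg replicate 1 (adjusted p up to 0.0861). In Teff 28.1% of all rows were called, 18.9% as higher with anti-CD3/CD28 and 9.15% as lower, and 12 of 27 were higher with anti-CD3/CD28 and none lower. Bright rows moved this way too: 59.4% of those with a mean of 8 or more were higher, with a median of 0.91, beside 7 of the 10 replication-dependent rows of that brightness, with a median of 0.84. H1f1 led here too (2.50 ± 0.40, adjusted p = 0.001356), followed by H1f5 (2.24 ± 0.41), the H4c1 row (1.98 ± 0.32) and H2bc3 (1.88 ± 0.43). H1f1 was thus near its control level in OX40L-JAG1 Teff arrays, at 5.62 and 4.20 against 5.01 and 4.82, while H2bc3 was above it. The count was 3 without anti-CD3/CD28 Teff replicate B, 7 without its replicate 1 and 17 without OX40L-JAG1 Teff replicate 1. Without OX40L-JAG1 Teff replicate B 7 rows were higher and 5 lower, and in a fit of the 4 arrays alone none was called.

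Between Treg and Teff cells after OX40L-JAG1, where 41.1% of all rows were called, 24.6% as higher in Treg and 16.5% as lower, only H2bc22 was called among the replication-dependent rows (-1.06 ± 0.28, adjusted p = 0.01238 by limma), and its group means were below 4.87 in all groups. The count changed direction with the processing. Quantile normalization called 5 higher and 5 lower, a common median 4 and 1, the fit without OX40L-JAG1 Teff replicate 1 gave 9 and 3, and that without replicate B gave 0 and 14. No order of the cell types can be read from it.

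H2ax was the variant gene that rose with anti-CD3/CD28 in both cell types. It encodes the H2A variant that is phosphorylated around DNA breaks, and its gene makes both a stem-loop and a polyadenylated mRNA. Its arrays gave 8.69 and 8.63 in control Treg, 8.85 and 8.54 in OX40L-JAG1 Treg and 10.25 and 10.05 in anti-CD3/CD28 Treg. In Teff they gave 8.26 and 8.39 in control, 8.56 and 7.96 with OX40L-JAG1 and 9.60 and 9.70 with anti-CD3/CD28. The 4 anti-CD3/CD28 arrays were above all 8 others. The rise was 1.49 ± 0.22 in Treg (adjusted p = 0.001154 by limma, 2.81-fold) and 1.33 ± 0.22 in Teff (adjusted p = 0.002154, 2.51-fold). With any 1 array left out both calls were kept, at 1.39 to 1.59 in Treg and 1.26 to 1.39 in Teff. Against OX40L-JAG1 culture it was higher by 1.46 ± 0.22 in Treg and by 1.39 ± 0.22 in Teff. The call in Teff was lost under quantile normalization and in a fit of the 4 arrays alone.

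Macroh2a1 encodes macroH2A1, an H2A variant with a large extra domain. It gave 9.28 and 9.39 in control Treg, 9.76 and 9.72 with OX40L-JAG1 and 10.32 and 10.34 with anti-CD3/CD28. Teff arrays gave 9.74 and 9.72 in control, 8.82 and 8.48 with OX40L-JAG1 and 9.78 and 10.04 with anti-CD3/CD28. It rose in anti-CD3/CD28 Treg by 0.99 ± 0.19 (adjusted p = 0.005439 by limma), a call lost without control Treg replicate 1 or either anti-CD3/CD28 Treg array (adjusted p up to 0.0564). In Teff it changed by only 0.18 ± 0.19 with anti-CD3/CD28 and fell by 1.08 with OX40L-JAG1 (SE 0.19, adjusted p = 9.73e-04). The response to OX40L-JAG1 differed between Treg and Teff by 1.49 ± 0.27 (adjusted p = 0.002165), but this call and the fall in Teff were lost under quantile normalization. Macroh2a1 was the only variant with a higher response in Treg among the 3 whose response to OX40L-JAG1 differed, the others being H2ab2 (-1.40 ± 0.40) and H1f7 (-1.03 ± 0.31).

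H2az1 and H2az2 encode H2A.Z, a variant found near gene starts. H2az2 gave 8.09 and 8.61 in control Treg, 8.29 and 8.67 with OX40L-JAG1 and 8.48 and 8.75 with anti-CD3/CD28, against 7.51 and 7.55, 7.67 and 6.60, and 8.17 and 8.44 in the same order in Teff. Treg arrays were higher than Teff arrays in control and OX40L-JAG1 cells, by 0.82 ± 0.32 in control (adjusted p = 0.2183 by limma) and by 1.35 ± 0.32 with OX40L-JAG1 (adjusted p = 0.0074). That call was lost without OX40L-JAG1 Treg replicate B (0.0674). In Teff, H2az2 was higher with anti-CD3/CD28 than with OX40L-JAG1 by 1.17 ± 0.32 (adjusted p = 0.02024), a call lost without OX40L-JAG1 Teff replicate B or either anti-CD3/CD28 Teff array (up to 0.129). Both H2az2 calls were also lost with array weights, under quantile normalization and in a fit of the 4 arrays alone. H2az1 spread more between replicates, with 6.25 and 5.27 in control Teff and 7.18 and 4.60 in OX40L-JAG1 Teff, and was not called in any comparison.

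The other H2A variants were lower in signal, and of these H2ab2 and Macroh2a3 were called in at least 1 comparison. H2ab2, an X-linked variant gene formerly H2afb2, gave 5.30 and 4.99 in control Teff, 6.34 and 6.21 with OX40L-JAG1 and 6.34 and 5.94 with anti-CD3/CD28. It rose in Teff by 1.13 ± 0.28 with OX40L-JAG1 (adjusted p = 0.008351 by limma) and by 0.99 ± 0.28 with anti-CD3/CD28 (adjusted p = 0.03748). The first call was lost without control Teff replicate B (0.0704) and the second without any of 6 arrays, among them each array of the groups compared (up to 0.249). It was also lower in Treg than in Teff after OX40L-JAG1 (-1.11 ± 0.28, adjusted p = 0.01056) and after anti-CD3/CD28 (-0.98 ± 0.28, adjusted p = 0.0478). Leaving out OX40L-JAG1 Treg replicate B ended the former call (0.0834), and leaving out any of 10 arrays ended the latter (up to 0.337).

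H2ab1, H2al2a and H2aj, 3 more genes of H2A variants, were called in no comparison. H2ab1 lay between 5.01 and 6.23, H2al2a between 4.99 and 6.93 and H2aj between 5.61 and 6.96. Macroh2a3 lay between 5.02 and 6.40 and was lower with anti-CD3/CD28 than with OX40L-JAG1 in Teff (-0.90 ± 0.27, adjusted p = 0.02949 by limma). That call was lost without OX40L-JAG1 Teff replicate B or either anti-CD3/CD28 Teff array (up to 0.135). Macroh2a2, which encodes the second macroH2A, had a group mean below 4.87 in all 6 groups.

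Of the 3 variant linker histones, H1f10 lay between 4.70 and 5.86 and was not called. H1f8, the linker histone of the oocyte, lay between 4.28 and 4.61 and H1f7, that of the developing sperm, between 3.56 and 4.71, so neither was shown above background in any group. H1f7 was nonetheless called higher in OX40L-JAG1 Teff arrays than in control Teff (0.72 ± 0.22, adjusted p = 0.0187 by limma), anti-CD3/CD28 Teff and OX40L-JAG1 Treg, and these calls were lost under quantile normalization and a common median.

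Over all 13 variant rows, anti-CD3/CD28 raised 2 in Teff and 2 in Treg and lowered none, with median changes of 0.26 and -0.28. Of all rows tested 5.44% rose and 9.76% fell in Teff, and 8.09% rose and 1.97% fell in Treg. Without either OX40L-JAG1 Teff array the Teff counts were 4 higher and 1 lower. OX40L-JAG1 raised 2 and lowered 1 in Teff, where 20% of all rows rose and 26.9% fell. In Treg it changed none (limma, 0 also at an unadjusted p under 0.05, and 0 in every other setting). The rows of the replacement histone H3.3, which list other genes beside H3f3b and H3f3a, were not called with anti-CD3/CD28. H3f3b gave 11.12 and 11.35 in control Teff and 11.22 and 11.28 with anti-CD3/CD28, and H3f3a gave 10.56 and 10.66 against 10.25 and 10.29 (changes of 0.02 ± 0.22 and -0.34 ± 0.17). With OX40L-JAG1 in Teff the H3f3b row gave 10.84 and 10.24 and fell by 0.70 (SE 0.22, adjusted p = 0.0213 by limma), a call lost without either control Teff array or without OX40L-JAG1 Teff replicate B (up to 0.141).

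Genes of DNA replication did not follow the histone rows between the cell types. Of 22 S phase genes measured, anti-CD3/CD28 raised 20 in Treg (median change 1.38) and 13 in Teff (1.02) and lowered none. Over all rows 8.09% rose in Treg and 5.44% in Teff, and 17.7% and 10.6% of the bright rows. In fresh cells none differed between Treg and Teff by limma (3 at an unadjusted p under 0.05, median 0.10). After anti-CD3/CD28 again none was called (10 unadjusted), and the median difference of 0.41 lay on the side of Treg, while that of the histone rows was -0.61. Mki67, a marker of cycling cells, gave 8.86 and 8.75 in control Treg, 11.09 and 11.11 in anti-CD3/CD28 Treg, 8.47 and 8.47 in control Teff and 9.99 and 10.14 in anti-CD3/CD28 Teff. It rose by 2.30 ± 0.39 in Treg (adjusted p = 0.002871 by limma) and by 1.60 ± 0.39 in Teff (adjusted p = 0.01784). The Teff call was lost without any 1 of the 4 arrays compared (up to 0.104).

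With OX40L-JAG1 in Teff 14 of the 22 S phase genes fell and none rose (median -0.94), while 12 histone rows rose. Falls were common in these arrays, at 26.9% of all rows and 73.4% of the rows with a mean of 8 or more (median -1.23). Mki67 gave 7.84 and 6.16 there and fell by 1.47 (SE 0.39, adjusted p = 0.01081 by limma), a call lost without either control Teff array (up to 0.0548). Between the 2 cultures in Teff, all 22 S phase genes were higher with anti-CD3/CD28, against 18.9% of all rows and 59.4% of the bright ones, led by Mki67 (3.07 ± 0.39), the cyclin Ccna2 (3.05 ± 0.30) and the ribonucleotide reductase subunit Rrm1 (2.60 ± 0.21). In OX40L-JAG1 Treg none was called (4 unadjusted).

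Genes for making and processing histone mRNA were called in smaller numbers than S phase genes with anti-CD3/CD28 against control, and in larger numbers in some comparisons with OX40L-JAG1 Teff arrays. Of 22 measured, anti-CD3/CD28 raised 6 in Treg (8.09% of all rows), among them the cyclin Ccne1 (1.70), the kinase Cdk2 (1.64) and the exonuclease Eri1 (0.93), which trims the stem-loop end. In Teff it raised 4 (5.44% of all rows), with Ccne1 at 1.24, the cap-binding subunit Ncbp2 at 1.07, Slbp at 0.90 and Zfp473 at 0.76, and lowered 1, the decay factor Upf1 (-1.16). In fresh cells none differed between Treg and Teff (8 unadjusted). With OX40L-JAG1 16 fell in Teff and none rose, where 26.9% of all rows and 73.4% of the bright rows fell. Between OX40L-JAG1 Treg and Teff 14 were higher in Treg (24.6% of all rows and 77.3% of the bright ones). Between the cultures in Teff 17 were higher with anti-CD3/CD28 (18.9% of all rows and 59.4% of the bright ones), led by Ccne1 (2.45 ± 0.25), Casp8ap2 (1.95 ± 0.26), a factor of histone gene transcription, and Eri1 (1.75 ± 0.22).

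Slbp gave 8.62 and 8.19 in control Treg, 8.92 and 9.12 in anti-CD3/CD28 Treg, 7.84 and 7.78 in control Teff and 8.72 and 8.69 in anti-CD3/CD28 Teff. It thus stood higher in fresh Treg than in fresh Teff, by 0.60 ± 0.22 (adjusted p = 0.1903 by limma, not called). The rise in Teff of 0.90 ± 0.22 was called (adjusted p = 0.01839) and was lost without any 1 of the 4 arrays compared (up to 0.131). That in Treg of 0.61 ± 0.22 was not (adjusted p = 0.1216). In OX40L-JAG1 Teff it gave 7.88 and 7.35, a change of -0.19 ± 0.22.

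The next list holds 26 measured genes, for histone chaperones, which carry new histones to DNA, and for related factors of chromatin. In anti-CD3/CD28 Treg 8 rose and 1 fell, where 8.09% of all rows rose and 1.97% fell. The rises included Asf1b (2.05 ± 0.22), Chaf1a (2.03 ± 0.25) and Chaf1b (2.00 ± 0.23), which load new H3 and H4 behind the replication fork, and Cenpa, the centromere H3 (1.59), while Ep400 fell by 2.47. In Teff 4 rose, Chaf1a (1.49), Asf1b (1.29), Ep400 (1.11) and Npm1 (0.95), and 5 fell, among them Srcap (-1.50), part of the complex that exchanges H2A.Z. Over all rows 5.44% rose and 9.76% fell there, and 10.6% and 24.2% of the bright ones. Ep400 thus fell in Treg and rose in Teff with anti-CD3/CD28, as most of the small RNAs given below did. Whether they are linked was not tested. With OX40L-JAG1 in Teff 2 rose, Ep400 (1.28) and Znhit1 (0.59), where 20% of all rows rose. There 15 fell (26.9% of all rows and 73.4% of the bright ones), led by Srcap (-2.07), Supt16 (-1.92) and Ubn1 (-1.83). Between the cultures in Teff 17 were higher with anti-CD3/CD28 (18.9% of all rows and 59.4% of the bright ones), led by Asf1b (2.05), Supt16 (1.87) and Nasp (1.73).

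Small RNAs that also lack a poly(A) tail moved in the direction of the histone rows in some comparisons and apart from them in others. The list holds 78 genes of small nucleolar and Cajal body RNAs and was put together after the data were seen. Their mean gave 10.29 to 10.31 in control Teff arrays, 11.61 to 12.05 with OX40L-JAG1 and 11.87 to 11.88 with anti-CD3/CD28. In Treg arrays it gave 11.14 to 11.38 in control, 10.07 to 10.21 with OX40L-JAG1 and 9.16 to 9.19 with anti-CD3/CD28. In fresh cells 34 of the 78 were higher in Treg and 1 lower (median 0.81), and in Teff 57 rose with anti-CD3/CD28 (median 1.48) and 70 with OX40L-JAG1 (median 1.51), none falling. In anti-CD3/CD28 Treg 70 fell (median -2.09), where 1 of 27 histone rows fell and the median was -0.08. In OX40L-JAG1 Treg 31 fell against control (median -0.97; 1 of 27 histone rows, median -0.26). With anti-CD3/CD28 against OX40L-JAG1, 42 were lower in Treg (median -1.02), where the histone median was 0.08. In Teff 3 were higher and 2 lower (median -0.07), where 12 of 27 histone rows were higher with a median of 0.51. Between OX40L-JAG1 Treg and Teff, 70 were lower in Treg, against 1 of 27 histone rows. The Treg response to anti-CD3/CD28 was below the Teff response in 75 of 78. Their part in the histone results was not tested.

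**Figure D5:**
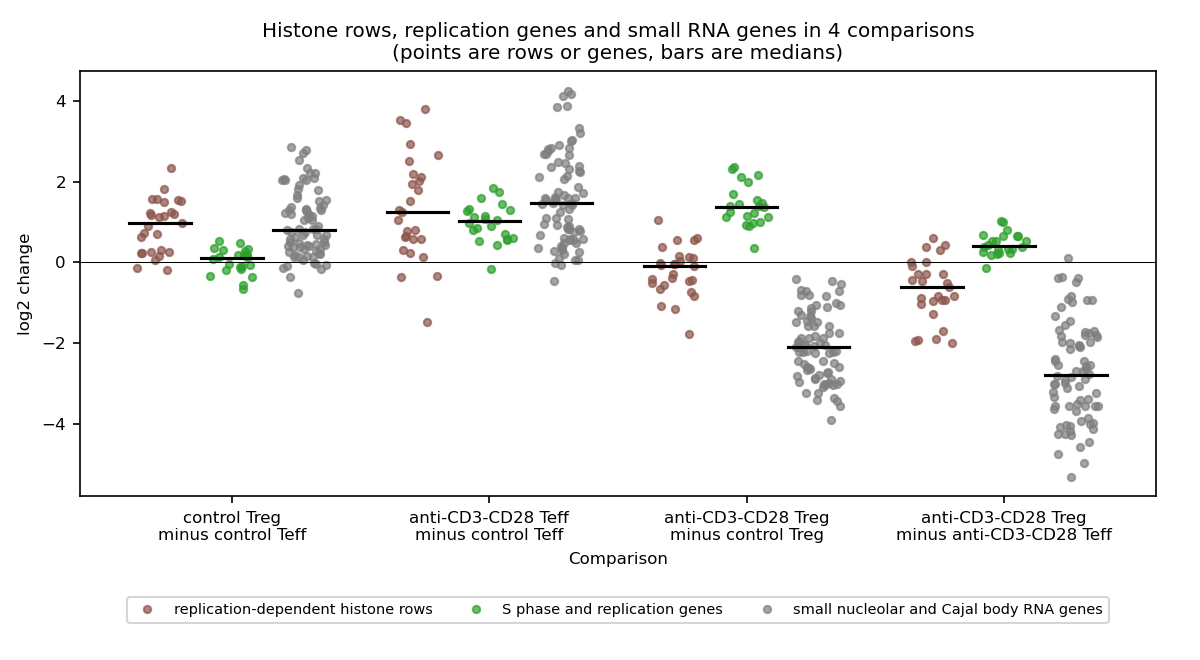
Log2 changes of single genes (points) in 4 comparisons for the replication-dependent histone rows, the S phase genes and the small nucleolar and Cajal body RNA genes. With anti-CD3/CD28 in Treg the S phase genes are above 0 (median 1.38), the histone rows are around 0 (median -0.08) and the small RNAs are below it (median -2.09), while in Teff all 3 groups have medians above 0 (1.02, 1.24 and 1.48).

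Replicates differed in the replication-dependent rows in a common direction. Replicate 1 was above replicate B in 22 of 27 rows in control Treg, 23 in OX40L-JAG1 Treg, 20 in anti-CD3/CD28 Treg, 20 in control Teff and 21 in OX40L-JAG1 Teff, but in only 9 in anti-CD3/CD28 Teff. Over all rows tested the share was 47.9% to 57.4%, but over rows with a mean of 8 or more it was 24.6% in anti-CD3/CD28 Teff, 92.7% in OX40L-JAG1 Teff, 62.5% in control Treg and 36.3% to 45.2% in the other 3 groups. The median difference was 0.41 or less in size in 5 groups and 0.98 in OX40L-JAG1 Teff, where single rows differed by up to 2.39. The rise of 1.24 in the median row with anti-CD3/CD28 in Teff was larger than these differences in the 4 arrays it compares, 0.12 and -0.14.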

How the data were processed

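RNA of 12 samples was hybridised to Affymetrix Mouse Gene 2.0 ST arrays. The deposited values are log2 intensities, made by the authors with RMA per the submitters' processing notes (version and annotation build not given in the sources used here). Gene names come from the array annotation; 62 histone genes matched the name rule by array symbol and 20 more by an older symbol of the same Entrez gene in RefSeq (GRCm38.p6), which also gave the promoters. Tested were 22179 rows: 22137 other genes by their brightest single-symbol row, 40 histone rows and 2 H3.3 rows. A group-means model over all 12 arrays was fitted with limma 3.58.1 in R 4.3.3 (lmFit, eBayes), with 9 comparisons of groups and 2 differences of responses, two-sided, and Benjamini-Hochberg adjustment over all rows in each; the threshold was 0.05. Scripts were tested on simulated data. Changes are on the log2 scale. Replication-dependent genes are those with cluster symbols (Hist1h to Hist4h, H2ac, H2bc, H3c, H4c) or H1f1 to H1f6; all others are variants.

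The rule named every variant row and, per comparison, the 4 largest rises and falls among called replication-dependent rows whose arrays do not overlap; of each pathway list it named the 3 largest in each direction in the comparison with most calls, and Foxp3, Mki67 and Slbp throughout. Other named rows and list genes were chosen after their values were seen. Members and lists were chosen with earlier results of these data known. Alternatives were other arrays, weights, scalings, filters, row choices and a replicate block.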

Additional observations from a re-analysis of the deposited data

Results flagged for a closer look

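In 20 tests of histone rows the response of Treg cells (treated minus fresh) differed from that of Teff cells, each by a limma test of the difference itself (Benjamini-Hochberg over all rows). Values are Treg response minus Teff response in log2 units ± SE with the adjusted p.

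With anti-CD3/CD28 all 10 were below 0. The linker histone genes were H1f5 (-2.91 ± 0.59, 0.009592) and H1f3 (-2.13 ± 0.53, 0.02422). H2A had H2ac21 (-2.52 ± 0.62, 0.02363). H2B had H2bc3 (-4.23 ± 0.61, 0.001971), H2bc18 (-3.21 ± 0.47, 0.002025), the H2bc4 row (-2.25 ± 0.31, 0.001453) and the H2bc7 row (-1.66 ± 0.27, 0.003343). H4 had H4f16 (-3.50 ± 0.65, 0.006737), the H4c1 row (-3.42 ± 0.45, 0.001234) and H4c12 (-2.06 ± 0.33, 0.003171). All 10 are replication-dependent.

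With OX40L-JAG1 the replication-dependent rows were H2bc3 (-2.32 ± 0.61, 0.01566), H2bc18 (-2.22 ± 0.47, 0.005215), the H4c1 row (-1.79 ± 0.45, 0.01202), H2bc22 (-1.32 ± 0.40, 0.02737), H4c12 (-1.31 ± 0.33, 0.0122), the H2bc4 row (-1.30 ± 0.31, 0.00904) and the H2bc7 row (-1.09 ± 0.27, 0.01099). The variants were H2ab2 (-1.40 ± 0.40, 0.02303), H1f7 (-1.03 ± 0.31, 0.02527) and, in the other direction, Macroh2a1 (1.49 ± 0.27, 0.002165).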

How the results depend on the processing

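Groups of 2 arrays give wide errors, and rows with group means below 4.87 are not shown above background. Replicate numbers were not taken to pair arrays, since over all rows tested the deviations of arrays with the same number correlated at -0.0699 to 0.181 over 15 pairs of groups. This was not judged on the histone rows alone. In most replication-dependent rows replicate 1 was above replicate B in every group but anti-CD3/CD28 Teff. A replicate block was run as an alternative. Counts of called rows below are given for replication-dependent (RD) and variant (V) rows beside the count reported; the rises of H2ax with anti-CD3/CD28 in both cell types and of H2bc3, H1f5 and the H4c1 row in anti-CD3/CD28 Teff kept their call in all settings run for them. The cause of each move was not tested.

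With both OX40L-JAG1 Teff arrays left out, RD counts were 3 (OX40L-JAG1 Treg against control, from 1), 6 (anti-CD3/CD28 Treg against control, from 1), 3 (anti-CD3/CD28 against OX40L-JAG1 Treg, from 1), 16 (control Treg against Teff, from 9), 13 (anti-CD3/CD28 Treg against Teff, from 6) and 16 (difference of anti-CD3/CD28 responses, from 10). V counts were 2 (anti-CD3/CD28 against OX40L-JAG1 Treg, from 1), 5 (anti-CD3/CD28 Teff against control, from 2), 2 (control Treg against Teff, from 0), 3 (anti-CD3/CD28 Treg against Teff, from 1) and 3 (difference of anti-CD3/CD28 responses, from 0).

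With only the 4 arrays compared, RD counts were 2, 9 and 3 in OX40L-JAG1 Treg, in anti-CD3/CD28 Treg and between the Treg cultures, 4 in OX40L-JAG1 Teff against control (from 13), 0 between the Teff cultures (from 12), 17 for control Treg against Teff, 0 for OX40L-JAG1 Treg against Teff and 12 for anti-CD3/CD28 Treg against Teff. V counts were 2 between the Treg cultures, 5 in anti-CD3/CD28 Teff, 0 between the Teff cultures (from 5), 2 in control Treg against Teff and 0 in OX40L-JAG1 Treg against Teff (from 4). With array weights, RD counts were 2, 7 and 2 in the same 3 comparisons, 4 between the Teff cultures, 17, 0 and 12 between the cell types and 16 for the anti-CD3/CD28 responses. V counts were 2 between the Treg cultures, 1 in OX40L-JAG1 Teff against control (now only lower), 5 in anti-CD3/CD28 Teff, 2 between the Teff cultures, 2, 1 and 3 between the cell types, and 1 and 2 for the responses (now only higher with OX40L-JAG1).

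With rows of 1 symbol only, RD counts were 2 and 2 in Treg against control, 4 in control Treg against Teff and 3 in OX40L-JAG1 Treg against Teff. With array symbols alone, chosen after seeing the data, RD counts were 0 in both Treg cultures, and V counts were 0 in anti-CD3/CD28 Treg, between the Treg cultures, in anti-CD3/CD28 Teff and between anti-CD3/CD28 Treg and Teff, and 1 in OX40L-JAG1 Teff, between the Teff cultures (now only lower), between OX40L-JAG1 Treg and Teff and for the OX40L-JAG1 responses. With all 81 distinct rows, also chosen after seeing the data, RD counts were 4, 4 and 5 in OX40L-JAG1 Treg, in anti-CD3/CD28 Treg and between the Treg cultures, 23 and 32 in OX40L-JAG1 and anti-CD3/CD28 Teff against control, 24 between the Teff cultures, 8 between OX40L-JAG1 Treg and Teff, and 19 and 21 for the responses to OX40L-JAG1 and anti-CD3/CD28.

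With quantile normalization, RD counts were 3 in anti-CD3/CD28 Treg (2 higher), 0 between the Treg cultures, 7 between the Teff cultures and 10 between OX40L-JAG1 Treg and Teff, and V counts were 0 between the Teff cultures and between anti-CD3/CD28 Treg and Teff. It also turned "H2ax, OX40L-JAG1 Teff minus control Teff" to 1.04, "H2ax, OX40L-JAG1 Treg minus OX40L-JAG1 Teff" to -0.64, "H2ax, interaction OX40L-JAG1" to -1.13 and "Slbp, OX40L-JAG1 Teff minus control Teff" to 0.88. With dim rows left out, with a trended and robust fit and with the replicate block, the RD count was 2 in anti-CD3/CD28 Treg, and between OX40L-JAG1 Treg and Teff it was 2 (all higher), 4 (3 higher) and 2. Dim rows left out gave V 2 for the anti-CD3/CD28 responses. The replicate block gave V 1 in anti-CD3/CD28 Teff and V 0 between anti-CD3/CD28 Treg and Teff; its other counts stayed within 1.5 times the count reported. A common median gave V 1 in anti-CD3/CD28 Teff, RD 5 between OX40L-JAG1 Treg and Teff (4 higher), V 0 between anti-CD3/CD28 Treg and Teff and V 1 for the anti-CD3/CD28 responses. Averaging the rows of each gene gave RD 15 for the OX40L-JAG1 responses.

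With 1 array left out, RD counts ran from 0 to 3 in OX40L-JAG1 Treg, 0 to 6 in anti-CD3/CD28 Treg, 0 to 3 between the Treg cultures, 9 to 20 in OX40L-JAG1 Teff and 3 to 17 between the Teff cultures. Between Treg and Teff they ran from 2 to 16 in control, 0 to 14 with OX40L-JAG1 and 1 to 13 with anti-CD3/CD28, and for the responses from 3 to 18 and 7 to 16. V counts ran from 1 to 2 in anti-CD3/CD28 Treg and between the Treg cultures, 2 to 9 and 1 to 5 in OX40L-JAG1 and anti-CD3/CD28 Teff, 2 to 7 between the Teff cultures, 0 to 2, 1 to 10 and 0 to 3 between the cell types, and 1 to 8 and 0 to 3 for the responses. Some changes turned when 1 OX40L-JAG1 Teff array was left out. "H1f3, OX40L-JAG1 Treg minus OX40L-JAG1 Teff" ran from -0.60 to 0.87, "H2ac21, OX40L-JAG1 Treg minus OX40L-JAG1 Teff" from -0.95 to 0.86, "H2bc3, OX40L-JAG1 Treg minus OX40L-JAG1 Teff" from -0.86 to 0.90, "H4f16, OX40L-JAG1 Treg minus OX40L-JAG1 Teff" from -1.25 to 0.67, "H1f4 row, OX40L-JAG1 Treg minus OX40L-JAG1 Teff" from -1.44 to 0.61 and "H2bu1-ps, OX40L-JAG1 Treg minus OX40L-JAG1 Teff" from -1.09 to 1.31. "H1f4 row, anti-CD3-CD28 Teff minus OX40L-JAG1 Teff" ran from -1.15 to 0.90, "H4c3 row, anti-CD3-CD28 Teff minus OX40L-JAG1 Teff" from -1.11 to 1.04 and "H2bu1-ps, anti-CD3-CD28 Teff minus OX40L-JAG1 Teff" from -1.02 to 1.38. "H2bu1-ps, OX40L-JAG1 Teff minus control Teff" ran from -1.08 to 1.32 and "H2az1, OX40L-JAG1 Teff minus control Teff" from -1.16 to 1.42.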
